A study of Mus musculus with 8 samples.

Results

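The acyl-CoA thioesterase genes Acot1, Acot2, Acot3, Acot4, Acot7, Acot8, Acot9, Acot11 and Acot13 were followed in the hearts of diabetic db/db and non-diabetic db/m mice. The 9 genes were taken by name, all 9 were found among the 55573 genes of the count table, and they were compared by the compartment in which each protein works. RNA sequencing gave 4 db/db and 4 db/m libraries, and 3 µg of total RNA went into each. All mice were C57BLKS/J males of 24 weeks. The db/db mouse is homozygous for a mutation of the leptin receptor gene that acts in the whole body and leads to obesity and diabetes, and the db/m mouse carries 1 mutated copy and serves as the lean control. Whether every library stands for an animal of its own is not said in the labels, and the p-values therefore cover the spread between these libraries, part of which may be technical.

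Acyl-CoA thioesterases cut the thioester bond that holds a fatty acid, or another acid, to coenzyme A, and release the free acid and free coenzyme A. They run against the acyl-CoA synthetases, which build that bond, and can set coenzyme A free when acyl groups pile up in a compartment. Because acyl-CoA does not cross membranes freely, the cytosol, the mitochondrion and the peroxisome each have thioesterases of their own. The type I enzymes (Acot1 to Acot4 here) share an alpha/beta hydrolase fold and lie side by side in the genome, while the type II enzymes (Acot7, Acot8, Acot9, Acot11 and Acot13) share a so-called hotdog fold and are scattered. Several type I genes are known targets of the fatty acid sensor PPAR-alpha in mouse liver and heart.

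The libraries held 19541757 to 22249911 counts in db/db and 20659351 to 21847393 in db/m. The labelled tissue was checked with marker genes: 10 genes listed for ventricular muscle summed to 33250 to 40220 CPM (counts relative to the size of each library after TMM scaling) in db/db and 29760 to 38000 in db/m. Several of the 10, Myh6 among them, are not confined to the ventricle, so the sum stands for heart muscle. Markers of other tissues stood out in db/m replicates 1 and 3. There, 14 adipocyte markers summed to 1837 and 3478 CPM, against 383 to 700 in db/db and 399 and 407 in the other db/m libraries, and 12 of the 14 lay above all 6 other libraries. In those other libraries most of the sum was 1 gene, Fabp4. It had 304 to 607 CPM in db/db, and 318 and 309 CPM in db/m replicates 2 and 4. Unlike the 12, Fabp4 was lowest of all in db/m replicate 3, at 186 CPM. The adipocyte markers Ucp1 and Retn were at 0 in every db/db library. The 10 atrial muscle markers summed to 816 to 1001 CPM in db/db, to 3408 and 6711 in db/m replicates 1 and 3 and to 840 and 902 in the other db/m libraries, with 9 of 10 above all 6 others. In db/m replicate 3, 8 of the 10 genes listed for ventricular muscle were lower than in any other library. Myh6 and Ryr2 were instead highest there, at 20480 and 1458 CPM, against at most 17320 and 1344 CPM elsewhere. Fitted results are therefore also given without these 2 libraries where that changed them, a choice made with these values known. In bulk tissue, fewer cells of a type and less RNA per cell cannot be told apart.

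Among the thioesterases, Acot1 and Acot2 had the largest fitted differences. Both had more transcript in db/db hearts, by 3.71-fold for Acot1, the cytosolic enzyme, and 3.09-fold for Acot2, its mitochondrial neighbour, though neither passed edgeR after adjustment. The fitted ratios of the other genes ran from 0.729 to 1.43, apart from 2.40 for the weakly expressed Acot3. Only Acot11 had a lower fitted level in db/db. All 9 genes passed the filter on low counts, and 8 had a positive log2 fold change, with a median of 0.43, beside 47.7% positive and a median of -0.02 over the 17411 genes tested. By edgeR's quasi-likelihood test with Benjamini-Hochberg adjustment over all genes, 0 of the 9 were called, where 0.00574% of all genes were (1 gene, Slc38a1). At an unadjusted p under 0.05, 2 of the 9 were higher in db/db (Acot1 and Acot2), where 5.12% of all genes were, and 0 were lower, where 7.84% of all genes were. The groups did not overlap in 1 of the 9 (Acot2, higher in db/db), where 5.04% of all genes were higher with no overlap, and in 0 of the 9 on the lower side, where 4.61% of all genes were. The call of Acot1 and Acot2 depended on the tool: DESeq2 called both (adjusted p = 0.000445 and 0.000207 in DESeq2) and no other member, where 1.09% of the genes it tested were higher. In limma-voom with sample quality weights both missed (adjusted p = 0.0651 for Acot1 and 0.0507 for Acot2). Without db/m replicates 1 and 3, 8 of 9 were positive, with a median of 0.18, beside 9059 of 17971 genes and a median of 0.002 over all genes in that fit. The negative member was then Acot8 and not Acot11. Acot2 was the 1 member higher at an unadjusted p under 0.05 in that fit, where 5.63% of all genes were, and 0 were lower, where 5.04% of all genes were.

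**Figure D1:**
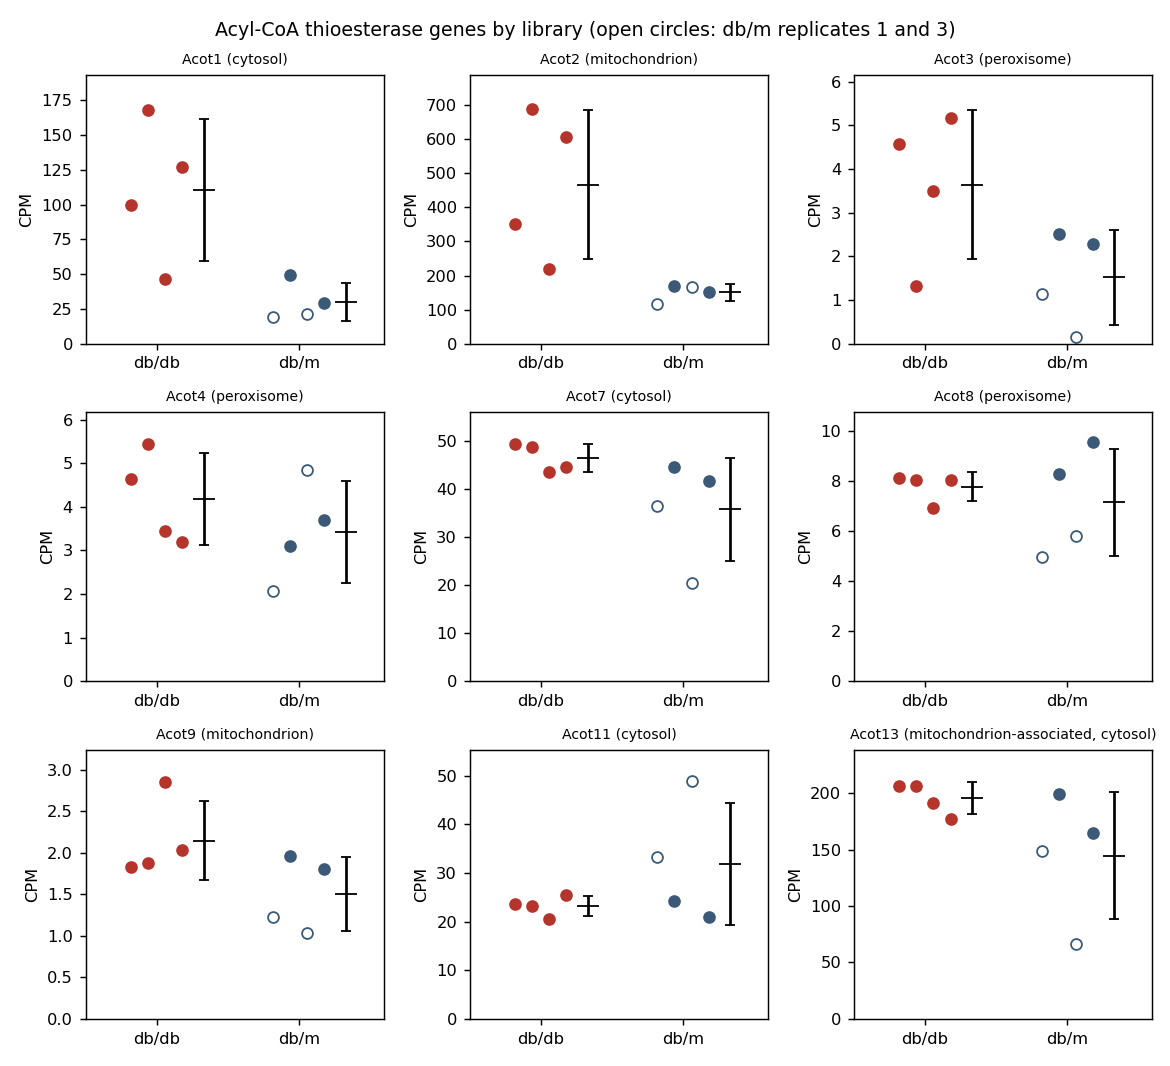
CPM of each of the 9 genes in the 4 db/db (left, red) and 4 db/m (right, blue) libraries, with the mean and SD as a black bar, and open circles for db/m replicates 1 and 3. All 4 db/db libraries lie above all 4 db/m libraries for Acot2, while every other gene has overlapping groups.

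Acot2 encodes the long-chain acyl-CoA thioesterase of the mitochondrial matrix (ENSMUSG00000021226, chr12:83987861-83993873, plus strand, mm10). It had 350.0, 689, 219.5 and 605 CPM in db/db replicates 1 to 4, against 117, 168, 167 and 151 CPM in db/m replicates 1 to 4. The lowest db/db library, replicate 3, lay above the highest db/m library, replicate 2. Means were 466 ± 218 CPM in db/db and 151 ± 23.9 CPM in db/m (SD, n = 4 each), so the db/db libraries were spread more widely than the db/m libraries, with a coefficient of variation of 46.9% against 15.9%. The log2 fold change was 1.63 (SE 0.32; edgeR with Benjamini-Hochberg adjustment, adjusted p = 0.136), which placed Acot2 60th of 17411 genes by p. Without db/m replicates 1 and 3 it was 1.54, and over the fits that each left out 1 library it ran from 1.38 to 1.87. Acot2 was thus among the members least moved by the 2 libraries with adipocyte and atrial counts, whose own Acot2 values lay at the bottom and near the top of the db/m range.

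Acot1 encodes the cytosolic long-chain enzyme (ENSMUSG00000072949, chr12:84009490-84018371, plus strand), downstream of Acot2 on the same strand. It had 99.7, 168, 46.8 and 127 CPM in db/db replicates 1 to 4, against 19.3, 49.3, 21.2 and 29.6 CPM in db/m replicates 1 to 4. The groups met at a single point, where db/db replicate 3 lay just under db/m replicate 2. Means were 111 ± 51.0 CPM in db/db and 29.8 ± 13.7 CPM in db/m (SD, n = 4 each). The log2 fold change was 1.89 (SE 0.40; edgeR with Benjamini-Hochberg adjustment, adjusted p = 0.146), 97th of 17411 by p. It ran from 1.62 to 2.25 over the fits without 1 library and was 1.48 without db/m replicates 1 and 3, with an unadjusted edgeR p of 0.0637 in that fit. The order of the db/db libraries was the same for both genes, replicate 2 highest, then 4, 1 and 3.

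The coding sequences of Acot1 and Acot2 are 95.55% identical over 1236 aligned bases, so part of the reads of one could have been counted for the other. Of the windows of 50 bases in Acot1 transcripts, 13.6% also occur in Acot2, and 24.55% of those of Acot2 occur in Acot1. The longest run that both coding sequences share is 273 bases in exon 3 of the 3 exons of each gene, at chr12:84017006-84017278 in Acot1 and chr12:83992728-83993000 in Acot2, plus strand, mm10. It is printed because a read from within it cannot be given to one gene over the other by its sequence. Capitals are not used in it.
Acot1 and Acot2 shared run: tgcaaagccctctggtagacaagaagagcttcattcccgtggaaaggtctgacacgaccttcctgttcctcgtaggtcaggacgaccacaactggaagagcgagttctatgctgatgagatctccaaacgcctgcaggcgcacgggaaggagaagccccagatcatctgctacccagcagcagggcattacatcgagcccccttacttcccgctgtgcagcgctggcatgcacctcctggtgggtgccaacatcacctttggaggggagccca
How such reads were counted is not given in the sources used here. With the counts of both genes summed before the fit, the log2 fold change was 1.68 (edgeR with Benjamini-Hochberg adjustment, adjusted p = 0.135).

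Acot1 took 22.2, 19.6, 17.6 and 17.4% of the summed Acot1 and Acot2 counts in db/db replicates 1 to 4, against 14.2, 22.7, 11.3 and 16.4% in db/m replicates 1 to 4. This share is not corrected for length and is compared only between libraries. The groups overlapped, at 19.2 ± 2.23% in db/db and 16.1 ± 4.84% in db/m (SD, n = 4 each). The difference of 3.06 percentage points was within the spread of the libraries (two-sided exact permutation test, p = 0.257, where 4 against 4 can give no less than 0.0286). It was -0.35 points without db/m replicates 1 and 3, so the share gave no direction that held.

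**Figure D2:**
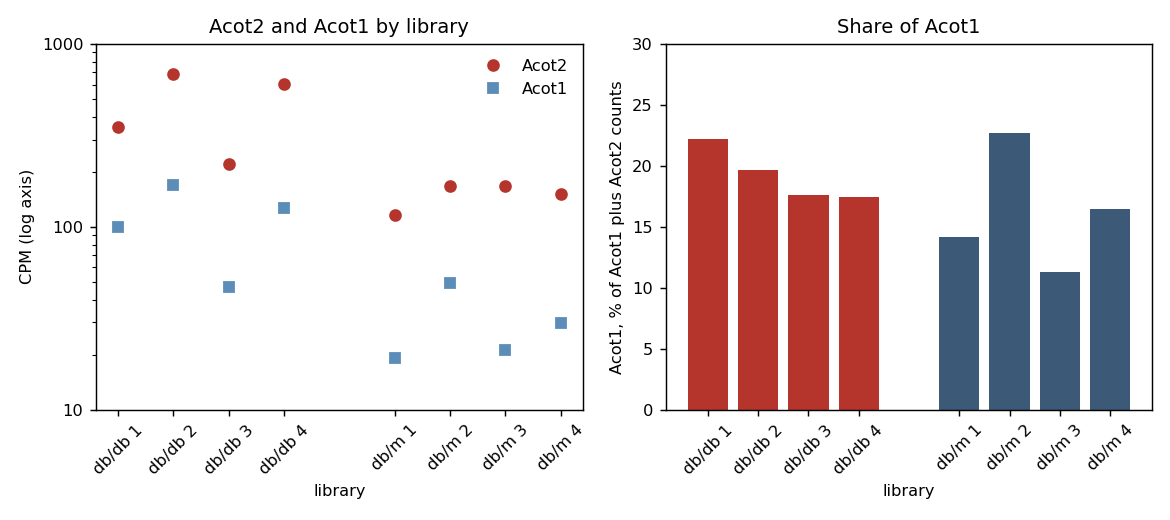
Left, CPM on a log axis of Acot2 (circles) and Acot1 (squares) in each library, db/db before db/m. Right, the percentage of the summed Acot1 and Acot2 counts that fell on Acot1, between 17.4 and 22.2% in db/db and between 11.3 and 22.7% in db/m.

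The promoters of the 4 type I genes were read from RefSeq on GRCm38.p6 (the mm10 assembly), as 250 bases before to 50 bases after the annotated start, shown because type I genes include known targets of PPAR-alpha, a nuclear receptor. They are given 5′ to 3′ on the plus strand, at chr12:84009252-84009551 for Acot1, chr12:83987611-83987910 for Acot2, chr12:84051894-84052193 for Acot3 (the first of 2 starts) and chr12:84038129-84038428 for Acot4. Capitals mark the nuclear receptor half-site AGGTCA on either strand, here read as TGACCT.
Acot1: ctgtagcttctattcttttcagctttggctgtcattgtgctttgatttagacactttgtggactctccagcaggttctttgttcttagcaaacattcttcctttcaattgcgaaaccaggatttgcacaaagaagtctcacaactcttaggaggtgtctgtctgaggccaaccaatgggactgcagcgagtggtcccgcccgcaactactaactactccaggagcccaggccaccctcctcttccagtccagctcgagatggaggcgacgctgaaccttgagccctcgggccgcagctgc
Acot2: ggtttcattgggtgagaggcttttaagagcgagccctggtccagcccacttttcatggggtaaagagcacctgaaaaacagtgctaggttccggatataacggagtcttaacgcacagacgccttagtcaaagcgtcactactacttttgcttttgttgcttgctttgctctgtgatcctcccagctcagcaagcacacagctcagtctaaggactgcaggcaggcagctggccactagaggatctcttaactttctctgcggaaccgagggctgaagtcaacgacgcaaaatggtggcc
Acot3: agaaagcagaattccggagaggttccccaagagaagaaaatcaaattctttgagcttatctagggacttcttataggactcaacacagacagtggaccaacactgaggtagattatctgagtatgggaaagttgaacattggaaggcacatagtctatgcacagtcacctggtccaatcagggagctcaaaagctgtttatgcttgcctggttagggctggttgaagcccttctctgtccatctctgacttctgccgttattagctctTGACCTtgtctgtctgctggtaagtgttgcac
Acot4: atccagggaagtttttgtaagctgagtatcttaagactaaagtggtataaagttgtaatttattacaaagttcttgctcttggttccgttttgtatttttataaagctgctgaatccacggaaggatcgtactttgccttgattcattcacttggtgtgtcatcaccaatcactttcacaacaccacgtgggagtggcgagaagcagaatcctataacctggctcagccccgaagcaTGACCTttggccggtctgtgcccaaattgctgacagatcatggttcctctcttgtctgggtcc
The half-site was present in the windows of Acot3 and Acot4 and absent from those of Acot1 and Acot2. It also did not occur in the windows of Acot7, Acot8, Acot9 and Acot11, and 16.3% of 32851 promoters of the same length hold it. The direct repeat of the half-site with 1 base between its copies occurred in 0 of the 10 windows found for 8 members and in 0.0396% of all promoters. In an alignment, the Acot1 and Acot2 promoters were identical at 51.7% of their 300 bases, within the 49.0 to 54.0% seen over all pairs of members, so the near identity of the 2 genes does not reach into these windows. A match or its absence describes these letters only.

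Acot3 and Acot4, the other type I genes, encode peroxisomal enzymes, Acot3 for long-chain acyl-CoA and Acot4 for succinyl-CoA and other dicarboxylic acyl-CoA. Acot3 (ENSMUSG00000021228, chr12:84052144-84060402, plus strand) had 4.58, 1.31, 3.50 and 5.18 CPM in db/db replicates 1 to 4, against 1.14, 2.50, 0.165 and 2.28 CPM in db/m replicates 1 to 4. Of the 4 db/db libraries 3 lay above all db/m libraries, and db/db replicate 2, which was highest for Acot1 and Acot2, was the lowest db/db library here. The log2 fold change of 1.26 (SE 0.65) missed the threshold (edgeR with Benjamini-Hochberg adjustment, adjusted p = 0.425). Without db/m replicates 1 and 3 it was 0.59, and replicate 3 held 4 counts of the gene. Acot4 (ENSMUSG00000052392, chr12:84038379-84048601, plus strand) had 4.63, 5.44, 3.46 and 3.20 CPM in db/db, against 2.07, 3.09, 4.84 and 3.71 CPM in db/m. Its groups were mixed, and the log2 fold change was 0.29 (SE 0.30; edgeR with Benjamini-Hochberg adjustment, adjusted p = 0.659). It was 0.11 without db/m replicate 1, 0.51 without db/m replicate 3, 0.29 without both and 0.14 without db/db replicate 2, so its size depended on single libraries. Exons of both genes overlap those of the antisense gene 4732463B04Rik over 9.08% of Acot3 and 9.21% of Acot4, and the strand setting of the counting is not given in the sources used here; that gene held 95 counts in all. The protein-coding gene Gm49366 on the same strand shares 11.5% of the Acot3 exons and 0.49% of the Acot4 exons, and held 0 counts in all.

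Acot8, the third peroxisomal enzyme, accepts acyl-CoA of many lengths (ENSMUSG00000017307, chr2:164792765-164804882, minus strand). It had 8.13, 8.02, 6.91 and 8.06 CPM in db/db replicates 1 to 4, against 4.97, 8.30, 5.79 and 9.55 CPM in db/m replicates 1 to 4. The db/db libraries sat inside the db/m range, and the 2 low db/m libraries were replicates 1 and 3. Its log2 fold change was 0.12 (SE 0.23; edgeR with Benjamini-Hochberg adjustment, adjusted p = 0.803), with a sign that turned to -0.21 without db/m replicates 1 and 3 (adjusted p = 0.763 in edgeR), so no direction can be given. Its exons overlap those of Snx21, on the opposite strand, over 12.3% of their length, and Snx21 held 6368 counts in all, so reads from the overlap could not be told apart if strand was not used.

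Acot7 and Acot11 are the other cytosolic enzymes. Acot7, best known from brain, where it prefers long-chain acyl-CoA such as arachidonoyl-CoA (ENSMUSG00000028937, chr4:152178134-152271855, plus strand), had 49.2, 48.7, 43.4 and 44.6 CPM in db/db, against 36.3, 44.5, 20.4 and 41.5 CPM in db/m. The 4 db/db libraries lay close together, and the low db/m values were those of replicates 1 and 3. Its log2 fold change was 0.38 (SE 0.21; edgeR with Benjamini-Hochberg adjustment, adjusted p = 0.448). Without db/m replicate 3 it was 0.19, and without both 0.10.

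Acot11 carries a lipid-binding START domain and is also known as a thioesterase induced by cold in brown fat (ENSMUSG00000034853, chr4:106744555-106804998, minus strand). It had 23.7, 23.2, 20.5 and 25.5 CPM in db/db replicates 1 to 4, against 33.4, 24.3, 48.9 and 20.9 CPM in db/m replicates 1 to 4. In contrast to Acot7, db/m replicates 1 and 3 were the highest of all 8 libraries, and the other db/m libraries were within the db/db range. The log2 fold change of -0.46 (SE 0.24; edgeR with Benjamini-Hochberg adjustment, adjusted p = 0.435) was smaller, at -0.17, without db/m replicate 3 and turned to 0.03 without db/m replicates 1 and 3. In those libraries Ucp1, which lets brown fat mitochondria make heat, had 77.6 and 340.0 CPM, against 0 in every db/db library and 0.0982 and 0 in db/m replicates 2 and 4. The atrial marker sums, at 3408 and 6711 CPM, were also highest in these libraries, so the fat and atrial markers cannot be separated there. The part of either in the Acot11 difference was not tested beyond leaving the libraries out. Exons of Fam151a on the opposite strand cover 20.9% of the Acot11 exons, with 9 counts in all.

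**Figure D3:**
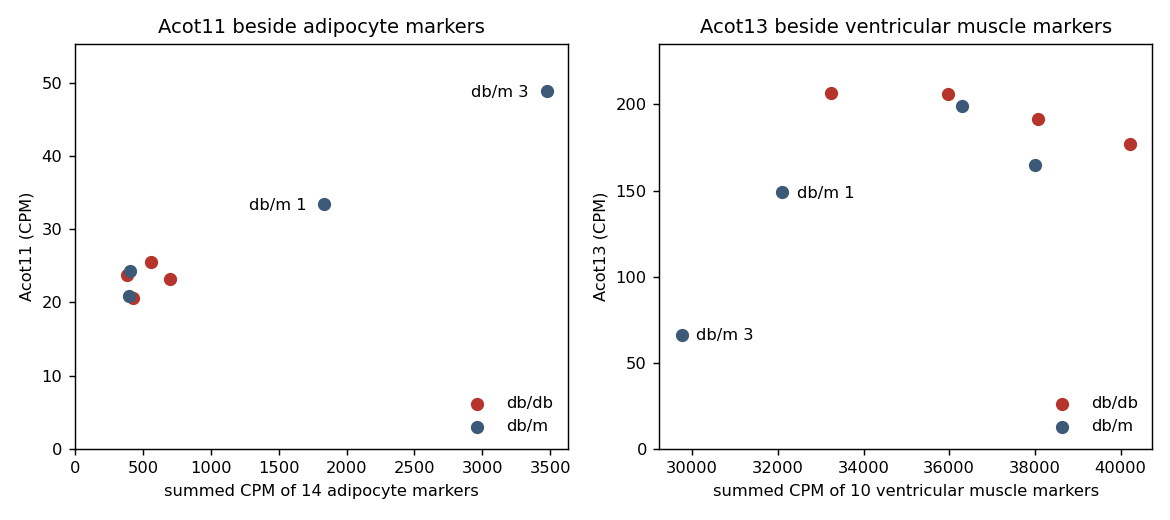
Left, Acot11 CPM against the summed CPM of 14 adipocyte markers in each library (db/db red, db/m blue). Right, Acot13 CPM against the summed CPM of the 10 genes listed for ventricular muscle, on an axis that does not start at 0. Several of these are not confined to the ventricle. Library db/m 3 has the most Acot11 (48.9 CPM) with the highest adipocyte sum and the least Acot13 (66.1 CPM) with the lowest ventricular sum. Of its ventricular sum, 29760 CPM, 20480 CPM is Myh6, which is highest in that library. Of the adipocyte sums in db/db, 304 to 607 CPM is Fabp4, which is lowest in db/m 3.

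Acot13, a small hotdog-fold enzyme found at mitochondria and in the cytosol and known to bind the phosphatidylcholine transfer protein (ENSMUSG00000006717, chr13:24817948-24831540, minus strand), was abundant in every library. It had 206, 207, 192 and 177 CPM in db/db replicates 1 to 4, against 149, 199, 66.1 and 165 CPM in db/m replicates 1 to 4. The lowest value was that of db/m replicate 3, the library with the lowest sum of the genes listed for ventricular muscle. Of that sum, 29760 CPM, 20480 CPM was Myh6, which was highest in that library. The sum does not tell ventricle from atrium, and whether Acot13 follows heart muscle content was not tested. The log2 fold change was 0.43 (SE 0.28; edgeR with Benjamini-Hochberg adjustment, adjusted p = 0.489), 0.20 without db/m replicate 3 and 0.10 without db/m replicates 1 and 3.

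Acot9, a mitochondrial enzyme for short- and long-chain acyl-CoA (ENSMUSG00000025287, chrX:155262443-155297654, plus strand), was weakly counted, at 1.83, 1.88, 2.86 and 2.03 CPM in db/db, against 1.23, 1.96, 1.03 and 1.81 CPM in db/m. Its 8 libraries together held 305 counts, and db/m replicates 1 and 3 were the lowest. On the log2 scale the difference was 0.51 (SE 0.31; edgeR with Benjamini-Hochberg adjustment, adjusted p = 0.476). Without those 2 libraries it was 0.18. The mouse also has Acot10, an intronless copy of Acot9 on chromosome 15, which held 3621 counts. The coding sequences are 97.2% identical over 1317 bases, and the longest run they share spans the junction of exons 6 and 7 of Acot9 (chrX:155281660-155282124, plus strand, with an intron between its ends) and lies unbroken in Acot10 (chr15:20666126-20666234, minus strand). It is shown as the stretch where a read could belong to either gene, again without capitals.
Acot9 and Acot10 shared run: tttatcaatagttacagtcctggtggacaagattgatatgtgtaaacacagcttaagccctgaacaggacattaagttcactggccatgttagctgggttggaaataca
Of the 50-base windows of Acot9 transcripts, 15.2% also occur in Acot10. Acot10 had 22.7 ± 2.10 CPM in db/db and 20.3 ± 2.04 CPM in db/m (SD, n = 4 each), a log2 difference of 0.16. With Acot10 counts added to Acot9, an alternative added after earlier results were known, the log2 fold change was 0.19 (edgeR with Benjamini-Hochberg adjustment, adjusted p = 0.507). Most counts of that sum were those of Acot10, 3621 against 305, so it cannot show whether Acot9 itself differed. Given the shared windows, the level of Acot9 is uncertain to the extent that its reads were counted for Acot10.

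**Figure D4:**
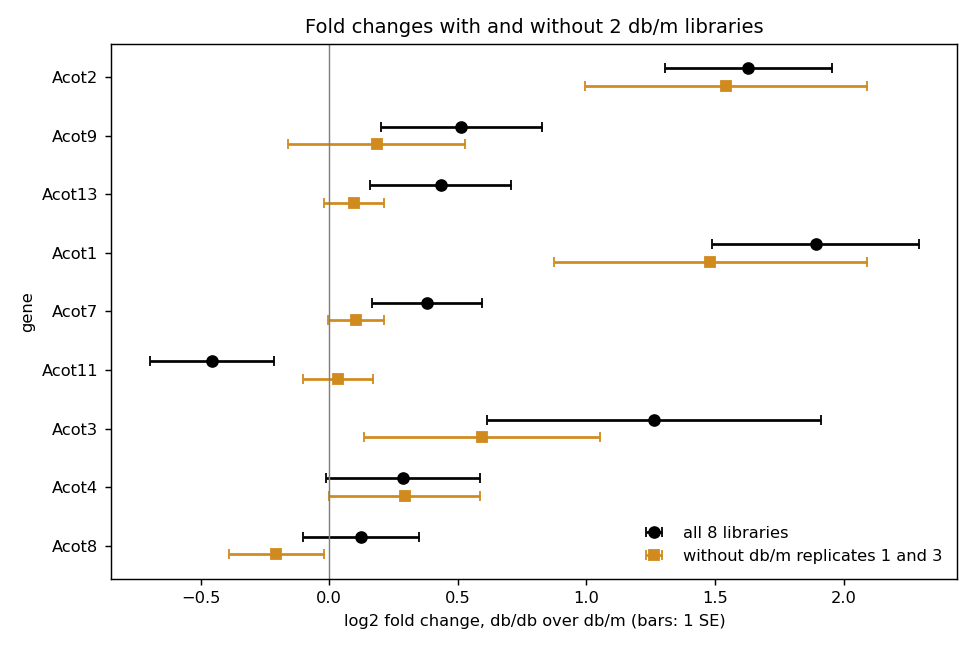
Log2 fold change, db/db over db/m, of each gene with 1 SE, from all 8 libraries (black circles) and without db/m replicates 1 and 3 (orange squares), ordered by compartment from the mitochondrion at the top to the peroxisome at the bottom. Acot2 and Acot1 stay at 1.54 and 1.48 without the 2 libraries, while the other 7 genes lie between -0.21 and 0.59.

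Levels were set side by side between genes as CPM per kilobase of merged exon. That length joins the exons of all annotated transcripts of a gene and can exceed that of the transcripts present. The order between genes, and sums over them, depend on it and on how reads shared by Acot1 and Acot2 were counted. In db/db the order was Acot13 (262.6 ± 19.1 CPM per kilobase), Acot2 (212 ± 99.5), Acot1 (28.2 ± 13.0), Acot7 (21.9 ± 1.37), Acot8 (3.90 ± 0.292), Acot11 (3.84 ± 0.339), Acot3 (1.06 ± 0.494), Acot9 (0.945 ± 0.211) and Acot4 (0.627 ± 0.157; SD, n = 4). In db/m it was Acot13 (195 ± 75.9 CPM per kilobase), Acot2 (68.6 ± 10.9), Acot7 (16.8 ± 5.06), Acot1 (7.61 ± 3.50), Acot11 (5.26 ± 2.06), Acot8 (3.58 ± 1.07), Acot9 (0.664 ± 0.196), Acot4 (0.513 ± 0.174) and Acot3 (0.443 ± 0.315; SD, n = 4). Acot13 and Acot2 thus led in both genotypes. Their ranges overlapped in db/db, where Acot2 exceeded Acot13 in replicates 2 and 4, and were apart in db/m. Acot1 stood above Acot7 by its mean in db/db and below it in db/m, with overlapping ranges in each. Library by library, Acot1 was below Acot7 in every db/m library and above it in every db/db library except replicate 3. Ranges were also apart between Acot2 and Acot1, Acot7 and Acot8, and Acot11 and Acot3 in db/db, and between Acot2 and Acot7 and Acot8 and Acot9 in db/m, while the remaining neighbours in either order overlapped. The ranges of the 3 lowest genes, Acot3, Acot4 and Acot9, overlapped in either genotype. Within each db/db library Acot9 was above Acot4, which did not hold in db/m replicate 3.

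Summed by compartment on the same scale, all 9 genes came to 535 ± 114 CPM per kilobase in db/db and 298 ± 82.5 in db/m (SD, n = 4 each), a ratio of 1.80. The mitochondrial pair Acot2 and Acot9 had 160, 314, 101 and 276 CPM per kilobase in db/db replicates 1 to 4, against 53.7, 77.4, 76.4 and 69.4 in db/m replicates 1 to 4. No db/db library of that pair overlapped the db/m libraries, and nearly all of the sum was Acot2. The cytosolic genes Acot1, Acot7 and Acot11 had 52.5, 69.7, 35.8 and 57.7 CPM per kilobase in db/db, against 27.5, 37.6, 23.1 and 30.6 in db/m, where db/db replicate 3 fell below db/m replicate 2. The peroxisomal genes Acot3, Acot4 and Acot8 were low in both, at 5.58 ± 0.558 CPM per kilobase in db/db and 4.54 ± 1.36 in db/m (SD, n = 4 each). Ratios of the means were 3.08 for the mitochondrion, 1.82 for the cytosol, 1.23 for the peroxisome and 1.35 for Acot13. Without Acot1 and Acot2 the other 7 genes summed to 295 ± 19.98 CPM per kilobase in db/db and 222 ± 80.0 in db/m, a ratio of 1.33, and db/m replicate 2, at 299, lay among the db/db libraries at 270 to 311. These sums follow from the members already described and carry no test of their own.

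As a share of the summed level, the mitochondrial pair held 38.2 ± 11.2% in db/db and 25.0 ± 9.94% in db/m (SD, n = 4 each), and Acot13 held 50.8 ± 11.4% in db/db and 63.3 ± 11.4% in db/m. Among the db/m libraries replicate 3 stood apart, where the mitochondrial pair held 39.8% and Acot13 46.3%, while the pair held 18.9 to 21.2% in the other db/m libraries. The cytosolic share differed little, at 9.99 ± 0.741% in db/db and 10.2 ± 1.24% in db/m.

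**Figure D5:**
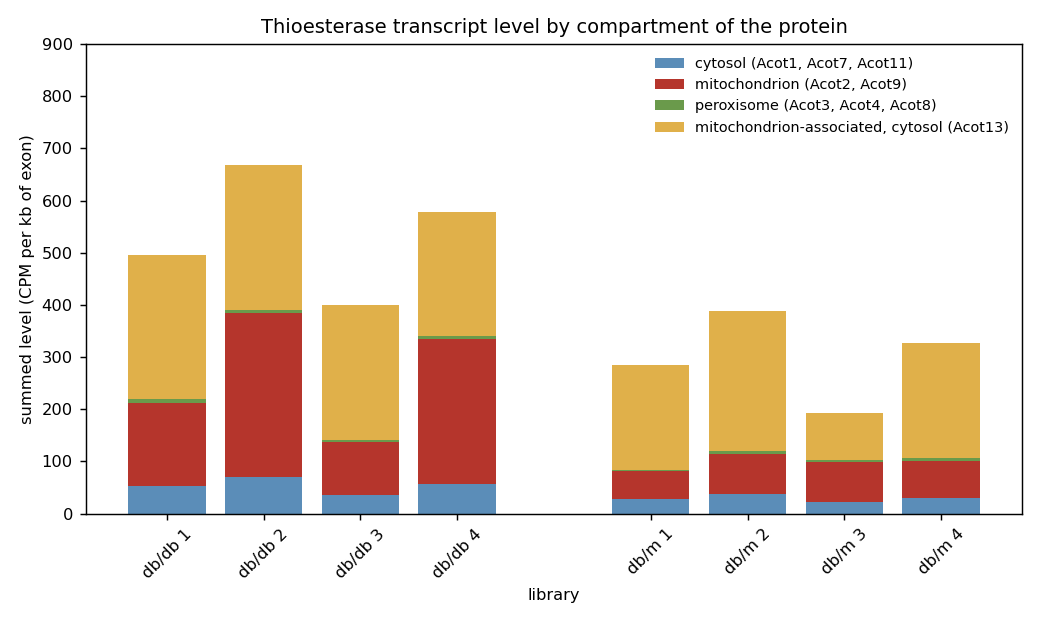
Summed CPM per kilobase of exon in each library, db/db before db/m, stacked by the compartment of the proteins. The mitochondrial part (Acot2 and Acot9) runs from 101 to 314 in db/db and from 53.7 to 77.4 in db/m, and the Acot13 part is shortest in db/m 3, at 88.8.

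The genes whose profile over the 8 libraries was most like that of Acot2 were sought by the mean absolute difference of log2 CPM, each gene centred on its own mean. The closest 3 outside the family included Vipr2, a receptor of vasoactive intestinal peptide (0.244 log2 units), and Acsm5, a mitochondrial synthetase of medium-chain acyl-CoA (0.248), where the median over 17400 genes was 0.839. Vipr2 had 3.77, 6.05, 2.30 and 4.06 CPM in db/db, against 1.495, 1.82, 2.15 and 1.95 CPM in db/m. Because these genes were picked for their likeness to Acot2, a difference between their groups is no separate result. Within the family Acot1 was nearest, at 0.290, and the other 7 members lay between 0.625 and 1.08. This is a description of 8 libraries.

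The remaining genes around the thioester bond were read from lists of known members. Of 12 other thioesterase genes, Acot5, Acot12, Them5, Baat and Olah did not pass the filter on low counts, and 0 of the 7 that did had an unadjusted edgeR p under 0.05 in either direction, where 5.12% of all genes were higher and 7.84% lower. Of the 7, 5 were positive, where 47.7% of all genes were, with a median log2 fold change of 0.13. Without db/m replicates 1 and 3, 3 of the 7 were positive, beside 9059 of 17971 genes, and the median was -0.16. In that fit 1 was lower at that p, where 5.04% of all genes were. Acot6, another type I gene of the chromosome 12 group, had 8.03 ± 1.59 CPM in db/db and 8.51 ± 1.69 CPM in db/m (SD, n = 4 each), a log2 fold change of -0.08. Hibch, which hydrolyses 3-hydroxyisobutyryl-CoA in valine breakdown, had a log2 fold change of 0.35 and Ppt1, a lysosomal enzyme that removes palmitate from proteins, 0.25.

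Among 10 genes of coenzyme A synthesis and transport, 2 were higher in db/db at an unadjusted edgeR p under 0.05 and 0 lower, where 5.12% of all genes were higher and 7.84% lower, and 1 was higher without db/m replicates 1 and 3, where 5.63% of all genes were higher. The first 2 were Slc25a42, the mitochondrial carrier for coenzyme A, and Ppcs, which joins cysteine to phosphopantothenate. Slc25a42 had 179, 174, 142 and 209 CPM in db/db replicates 1 to 4, against 81.3, 127, 81.4 and 113 CPM in db/m replicates 1 to 4, without overlap. Its log2 fold change was 0.805 (SE 0.185; edgeR with Benjamini-Hochberg adjustment, adjusted p = 0.183). Of the 10 genes, 3 were higher and 0 lower with no overlap, where 5.04 and 4.61% of all genes were. Of the 6 genes that break down coenzyme A or its relatives, 3 passed the filter, and 0 of these had an unadjusted p under 0.05. All 3 had positive log2 fold changes (Nudt7, the peroxisomal coenzyme A hydrolase, at 0.42), where 47.7% of all genes did. In the fit without db/m replicates 1 and 3, 1 of the 3 was positive, beside 9059 of 17971 genes, so the direction did not hold.

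The synthetases that make the thioester were divided. Of 13 tested, 6 were higher and 2 lower in db/db at an unadjusted edgeR p under 0.05, where 5.12% of all genes were higher and 7.84% lower. The median log2 fold change was -0.20. In the fit without db/m replicates 1 and 3, 5 were higher and 1 lower, where 5.63% of all genes were higher and 5.04% lower. The median was then 0.22. Slc27a1, a fatty acid transporter with synthetase activity, had 329, 318, 206 and 315 CPM in db/db, against 132, 169, 159 and 155 CPM in db/m, and Acsm5 had 13.8, 14.5, 8.84 and 17.9 CPM in db/db, against 2.99, 5.65, 5.50 and 4.13 CPM in db/m. Both were named for the smallest p of the list, and Acsm5 was also found above by its likeness to Acot2. That their groups were apart, with db/db replicate 3 the lowest db/db library, is therefore no separate result. Of the 13, 5 were higher and 1 lower with no overlap, where 5.04 and 4.61% of all genes were. Of 8 acyl-CoA and fatty acid binding proteins, 3 were higher and 1 lower at that p, beside the same 5.12 and 7.84% of all genes, with a median of 0.12. Without db/m replicates 1 and 3, 2 were higher and 0 lower, beside 5.63 and 5.04% of all genes.

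Genes that carry acyl groups into the mitochondrion or use acyl-CoA there, next to Acot2, formed a list of 14 that also held the carrier Ucp3. Of these, 13 of 14 were higher in db/db at an unadjusted edgeR p under 0.05 and 0 lower, where 5.12% of all genes were higher and 7.84% lower. The median log2 fold change was 0.87. Without db/m replicates 1 and 3 the count higher was 11, where 5.63% of all genes were higher, and the median 0.57. Slc25a20, the carnitine and acylcarnitine carrier, had 254, 266, 216 and 318 CPM in db/db, against 121, 160, 79.6 and 150 CPM in db/m. Its log2 fold change was 1.04 (SE 0.22) and that of Acaa2, the thiolase that ends a round of beta-oxidation, 0.93 (SE 0.21). Among 16 peroxisomal genes of acyl-CoA handling, next to Acot3, Acot4 and Acot8, 4 were higher and 1 lower at that p, beside the same 5.12 and 7.84% of all genes, with a median of 0.30. With db/m replicates 1 and 3 left out, 4 were higher and 0 lower, beside 5.63 and 5.04% of all genes, with a median of 0.20. The smallest p with all libraries belonged to Hsd17b4, the peroxisomal multifunctional enzyme (log2 fold change 0.52), and Ech1, an enoyl-CoA isomerase (1.08).

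Of 19 PPAR-alpha target and related genes, a list without the thioesterases, 15 passed the filter on low counts. Of the 15, 12 were higher in db/db at an unadjusted edgeR p under 0.05 and 0 lower, where 5.12% of all genes were higher and 7.84% lower. The median log2 fold change was 0.94. Ppara itself, the gene of the receptor, had a log2 fold change of -0.69 (SE 0.31; edgeR with Benjamini-Hochberg adjustment, adjusted p = 0.386). Leaving out db/m replicates 1 and 3, 7 were higher, where 5.63% of all genes were higher, with a median of 0.58. In none of these lists was a gene called after adjustment over all genes. The lists share members, Slc25a20 among them, so their counts are not separate results.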

How the data were processed

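Heart RNA was sequenced in 4 db/db and 4 db/m libraries. Per the labels' protocols, libraries were made with the NEBNext Ultra kit, and the submitters' processing notes name mm10. Aligner, counter, annotation release and strand use: not given in the sources used here. What the authors deposited are raw counts, whole numbers for each Ensembl gene in each library. The 8 files of single samples equal the table of the series, and rows that name no gene numbered 0.

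Symbols came from GENCODE M21 by identifier, with 55394 of 55573 found. Coordinates are those of the deposited table. Counts were fitted with edgeR 4.0.16 in R 4.3.3 over 17411 genes kept by filterByExpr (minimum count 10, minimum total count 15), with TMM factors, the robust quasi-likelihood F test and genotype as the single factor, two-sided, adjusted by Benjamini-Hochberg over all genes at 0.05. A positive log2 fold change means higher in db/db. The Acot1 share was compared by a two-sided exact permutation test in SciPy 1.17.1. Alternatives were DESeq2 1.42.0, limma-voom 3.58.1 with sample quality weights, other scalings and filters, a replicate block, summed genes and leaving out libraries. Shared windows came from GENCODE M21 transcripts, pseudogenes were sought with BLAST 2.17.0, and promoters are from RefSeq.

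All 9 members are named, with the 2 genes of smallest p from each further list and, for Acot2, the 3 most alike genes, of which some are not reported here. Acot6, Acot10, Ucp1, Retn, Fabp4, Myh6, Ryr2, Ppara, Slc38a1 and genes not tested were named for other reasons, after their values were seen. The members and lists were chosen with earlier results of these data known. Libraries of a genotype differed beyond sampling noise, and there are 4 libraries a group to measure the spread.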

Additional observations from a re-analysis of the deposited data

Results flagged for a closer look

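Each of the 9 genes and the Acot1 share of the Acot1 and Acot2 counts was looked at in each genotype, 20 groups of 4 libraries, for a library far from the others. In 1 group, Acot8 in db/db, the gap between replicate 3 at 6.91 CPM and the next library at 8.02 CPM took 0.913 of the group's whole range, above Dixon's 95% critical value for 4 values. Chance flags about 1 in 20 groups.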

How the results depend on the processing

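The number of genes called by edgeR over the whole table (1 with all libraries) was 377 in DESeq2 (186 higher and 191 lower), 101 in limma-voom (54 and 47), 27 with no filter on low counts and 46 (27 and 19) without db/m replicates 1 and 3. Leaving out 1 library at a time gave 0 to 106, the highest without db/m replicate 3 (64 higher and 42 lower). That library had the lowest sample quality weight in limma-voom, 0.1245, against 0.9428 to 2.085 for the others. The number of members called was 2 in DESeq2 and 0 in every other fit, those without 1 library included. Acot8 changed sign in limma-voom (-0.012), without db/m replicate 1 (-0.014, in a range of -0.014 to 0.305 over the fits without 1 library) and without both db/m replicates 1 and 3 (-0.205), Acot11 without those 2 (0.033), as did the Acot1 share (-0.351 points, exact permutation p = 1.0). Without 1 library the share differed by 1.44 to 5.24 points. The cause was not tested. Scaling by library totals alone moved the median log2 fold change of all genes to -0.134, and no member changed sign under any scaling. The replicate numbers did not pair the libraries (residual correlations -0.088 to 0.056), and a fit with the replicate block called 5 genes (3 higher and 2 lower) and 0 members. Adding pseudogene counts could not be run, since 0 near-identical pseudogenes were found. Of the members at an unadjusted p under 0.05, Acot1 and Acot2 were so in each fit without 1 library, Acot3 without db/db replicate 2, Acot7 and Acot13 without db/m replicate 2 and Acot11 without db/m replicate 4. With all libraries, 5.12% of all genes were higher and 7.84% lower at that p. The shares in the fits without 1 library are not given here, so these single members cannot be weighed against them. Acot9 had the fewest counts, 305 in all libraries together, and counting error was not separated from the spread between libraries for any member.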
